A study of Homo sapiens with 12 samples.

Results

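The genes described are 10 of the MHC class I antigen processing pathway, chosen by name: PSMB8, PSMB9 and PSMB10, the immunoproteasome subunits; TAP1 and TAP2, the subunits of the peptide transporter; TAPBP, which encodes tapasin; HLA-E and HLA-F, nonclassical heavy chains; B2M, beta-2 microglobulin; and NLRC5, the transactivator of class I genes. Of the 34127 different probes on the array, 16 carry these gene names, and the 10 genes are part of the 15717 that were tested. MHC class I molecules display peptides from a cell's own proteins on its surface, where CD8+ T cells and natural killer cells read them. The proteasome cuts the proteins, the TAP transporter carries the peptides into the endoplasmic reticulum, tapasin helps to load them onto a heavy chain paired with beta-2 microglobulin, and the finished complex travels to the surface. Inflammatory signals, above all interferon-gamma, are known to raise many genes of this pathway together, through IRF1, NF-κB and the regulator NLRC5, and tubular epithelial cells of the inflamed kidney are known to show more class I on their surface.

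The cells were human proximal tubular cell lines in culture, the HK-2 line (immortalized with papillomavirus genes) and the RPTEC/TERT1 line (immortalized with telomerase), both starved of serum and supplements for 24 h. They then received IL-1β at 10 ng/mL (a proinflammatory cytokine that acts through NF-κB), empagliflozin at 500 nM (Empa, an inhibitor of the glucose transporter SGLT2), or medium alone (control), for 24 h, and total RNA was hybridized to 1-colour arrays. There were 12 arrays in 6 groups of 2, as 4 slides that each held the control, IL-1β and Empa array of 1 labelled line and replicate number. No array of both agents together was analysed here, and both comparisons use the same control arrays.

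The labels for the line are not settled by the data. The titles name both lines but the source field names HK-2 throughout, and over 15329 probes the control array labelled HK-2 replicate 1 correlated at r = 0.984 with that labelled RPTEC/TERT1 replicate 2 but at 0.880 with HK-2 replicate 2. For HK-2 replicate 2, the control array closest to it was RPTEC/TERT1 replicate 1 (r = 0.973), and the 2 arrays sharing the RPTEC/TERT1 label reached 0.875. Treated arrays were therefore compared with the control array of their own slide, and every slide is given by its label. Replicate 1 and replicate 2 slides were scanned on different days, and the 75th percentile of the signal ran from 295.3 to 735.2 signal units, with 52.7% to 63.1% of probes well above background. Of 15 proximal tubule markers, 8 were well above background on all 12 arrays (among them LRP2, AQP1 and PAX8) and CUBN, SLC5A1, HNF4A and SLC22A6 on none. Of 5 epithelial markers with a value on all 12 arrays, EPCAM, KRT8, KRT18 and CDH2 were well above background on all 12. Of 11 such leukocyte markers, CD163 was well above background on 0 arrays and 5 on only some arrays. The leukocyte markers PTPRC, CD68, CD8A, CD79A and ITGAX were well above background on all 12 arrays. Of the markers of other cells, 1 of 5 endothelial (CDH5) and 0 of 6 fibroblast genes were so, though 4 of the 6 fibroblast genes were well above background on some arrays. Their summed signal was 66 to 4081 units on control, 65 to 4923 on IL-1β and 27 to 2624 on Empa arrays. The summed leukocyte signal was 1583 to 3086 units on control, 1591 to 2832 on IL-1β and 1434 to 2528 on Empa arrays, and the part of either list in the results below was not tested. The lowest signal flagged well above background was 5.14 to 8.67 units by array, so the flag alone does not show which cells were present.

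Of the 10 genes, 7 lie on chromosome 6, where TAP2, PSMB8, TAP1 and PSMB9 are direct neighbours in that order; PSMB10 and NLRC5 lie on chromosome 16 and B2M on chromosome 15. The 250 bases before the start site are shown for PSMB10 and TAP2, which passed the test with IL-1β, for TAP1 and TAPBP, which like B2M hold both motifs in capitals, and for PSMB8, which holds none of the 4 motifs searched for. Sequences are from RefSeq on GRCh38.p14, 5′ to 3′ in the direction of the gene, with matches to the NF-κB motif and to the interferon-stimulated response element in capitals.
PSMB10, chr16:67936851-67937100, minus strand: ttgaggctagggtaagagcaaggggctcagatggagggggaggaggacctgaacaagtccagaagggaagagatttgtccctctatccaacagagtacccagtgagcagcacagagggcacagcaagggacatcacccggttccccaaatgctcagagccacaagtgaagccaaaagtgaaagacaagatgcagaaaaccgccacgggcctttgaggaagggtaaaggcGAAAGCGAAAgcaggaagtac
TAP2, chr6:32838740-32838989, minus strand: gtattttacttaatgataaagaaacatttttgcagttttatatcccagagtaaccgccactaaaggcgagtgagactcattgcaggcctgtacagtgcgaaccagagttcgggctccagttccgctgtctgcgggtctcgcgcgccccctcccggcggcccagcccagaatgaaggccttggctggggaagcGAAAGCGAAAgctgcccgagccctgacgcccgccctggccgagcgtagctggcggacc
TAP1, chr6:32853705-32853954, minus strand: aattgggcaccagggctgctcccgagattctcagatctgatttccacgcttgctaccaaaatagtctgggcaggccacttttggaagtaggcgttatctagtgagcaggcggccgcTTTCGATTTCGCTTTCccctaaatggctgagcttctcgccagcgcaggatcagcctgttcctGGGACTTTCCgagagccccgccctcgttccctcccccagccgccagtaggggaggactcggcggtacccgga
TAPBP, chr6:33314079-33314328, minus strand: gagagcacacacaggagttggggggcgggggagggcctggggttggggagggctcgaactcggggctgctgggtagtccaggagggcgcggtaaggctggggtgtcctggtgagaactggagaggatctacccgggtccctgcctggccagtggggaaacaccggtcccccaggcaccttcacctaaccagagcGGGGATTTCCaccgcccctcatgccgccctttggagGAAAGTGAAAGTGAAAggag
PSMB8, chr6:32844680-32844929, minus strand: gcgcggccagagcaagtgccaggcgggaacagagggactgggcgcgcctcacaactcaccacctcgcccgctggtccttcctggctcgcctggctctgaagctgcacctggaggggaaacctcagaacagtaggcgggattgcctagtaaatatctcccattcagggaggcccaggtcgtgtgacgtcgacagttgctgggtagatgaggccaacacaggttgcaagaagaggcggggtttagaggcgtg
The promoter table held 8 of the 10 genes (not HLA-E or NLRC5). On either strand, the response element (GAAA, any 2 bases, then GAAA) was in 6 of these 8 windows (TAP1, TAP2, TAPBP, PSMB10, B2M and HLA-F), against 3.07% of 27305 promoter windows of that length. It began 21 bases before the start of PSMB10, 58 before that of TAP2, and overlapped itself in TAP1, TAPBP and B2M. The NF-κB motif was in TAP1, TAPBP and B2M (9.57% of all windows), at 72, 56 and 125 bases before the start. CCAAT was in TAP1, PSMB9, B2M and HLA-F (33.0% of all windows), and TTCNNNGAA, the GAS element, in 0 of 8 (6.78% of all windows). TAP1 and PSMB9 run in opposite directions with 487 bases between their starts, so their windows share 13 bases, which hold the CCAAT counted for both. A match is a run of letters and not a measured binding site.

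With IL-1β, PSMB10, TAP2 and HLA-E rose and no gene of the 10 fell: 3 of 10 passed at an adjusted p under 0.05, against 12.5% of all genes tested (4.73% higher and 7.74% lower). PSMB10 rose 2.36-fold, TAP2 1.73-fold and HLA-E 1.65-fold over the 4 slides, each higher on 4 of 4 slides, as were 15.6% of all genes. The other 7 genes did not pass. The median log2 fold change was 0.47 over the 10 genes and -0.10 over all genes tested. Values are from limma with the slide as a block and p adjusted over all genes, and in these bulk samples more RNA per cell and a change in the kinds of cells present cannot be told apart. All 10 probes used were well above background and unsaturated on all 12 arrays. These p-values rest on 4 slides: without the block 0 of 10 passed (7 genes in all, 0.0445%), and with the 6 groups kept apart beside the block 0 of 10 passed (5.44% of all genes).

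The scaled signals below are given per array after each array's 75th percentile was set to 408.6 signal units, always for the slides HK-2 replicate 1, HK-2 replicate 2, RPTEC/TERT1 replicate 1 and RPTEC/TERT1 replicate 2 in that order.

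**Figure D1:**
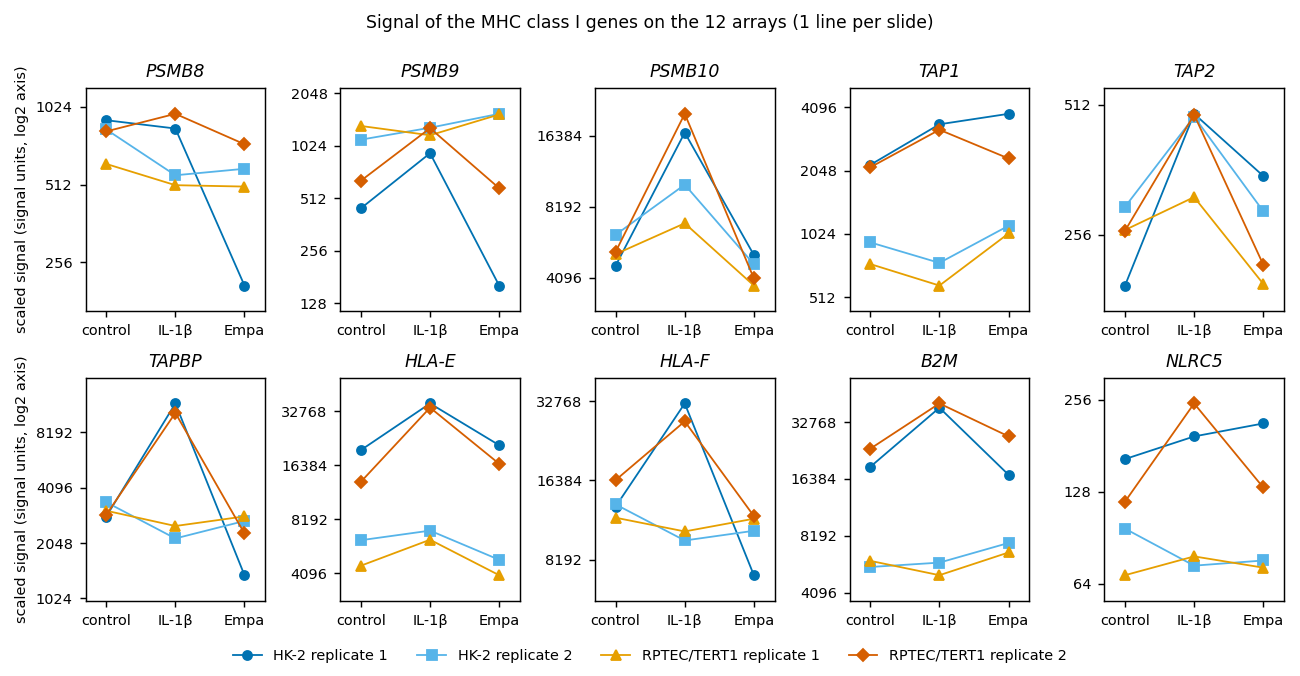
Scaled signal (signal units, log2 axis) of the 10 genes on the control, IL-1β and Empa array of each slide, 1 line per slide. PSMB10 and TAP2 were higher on every IL-1β array than on any control array, while the HLA-E, B2M and TAP1 lines were apart already on the control arrays.

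Of the immunoproteasome subunits, which replace the constitutive catalytic subunits PSMB6, PSMB7 and PSMB5 in new proteasomes, PSMB10 changed most. Its probe lies at chr16:67968412-67968471 (hg19, minus strand). Its control signals were 4609.9, 6235, 5162 and 5279 units, and its IL-1β signals 16933, 10179.5, 6977.5 and 20349 units. All IL-1β arrays lay above all control arrays, as also for TAP2; the arrays of both groups did not overlap, in either direction, for 2 of the 10 genes and 9.73% of all genes tested. The log2 difference within the slide was 1.88, 0.71, 0.44 and 1.95, with a fitted log2 fold change of 1.24 (SE 0.276, limma adjusted p = 0.021). Leaving out 1 array or 1 slide at a time kept the log2 fold change between 0.99 and 1.51, but the limma adjusted p ran from 0.0125 to 0.129. It passed in 8 of 12 fits without 1 array, not without the control or IL-1β array of HK-2 replicate 1 or of RPTEC/TERT1 replicate 2. Of the 4 fits without a slide it passed only without that of RPTEC/TERT1 replicate 1.

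PSMB9 signals were 447.2, 1107, 1326.5 and 644.0 units on control arrays and 925.6, 1296, 1173 and 1288 units on IL-1β arrays. The IL-1β arrays were closer to each other than the control arrays, whose highest was 2.97 times the lowest. The differences were 1.05, 0.23, -0.18 and 1.00 on the log2 scale (fitted 0.53, SE 0.422, limma adjusted p = 0.46), and the groups overlapped. PSMB8 had control signals of 909.2, 837.2, 615.4 and 822.9 units and IL-1β signals of 844.3, 556.1, 509.0 and 962.7 units. Its log2 differences of -0.11, -0.59, -0.27 and 0.23 gave a fitted value of -0.19 (95% confidence interval -0.97 to 0.59), with overlapping groups. PSMB8 was the only gene of the 10 with a fitted value below 0 for IL-1β, and its sign turned (0.03) without the control array of HK-2 replicate 1.

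In the transporter, TAP2 and TAP1 gave different readings. The TAP2 probe lies at chr6:32793222-32793281 (hg19, minus strand), and its signals were 195.2, 297.0, 262.5 and 261.4 units on control arrays and 487.7, 480.2, 312.8 and 485.3 units on IL-1β arrays. No IL-1β array fell as low as a control array, and 3 of them lay within 480.2 to 487.7 units. The log2 differences were 1.32, 0.69, 0.25 and 0.89 (fitted 0.79, SE 0.219, limma adjusted p = 0.046). Its adjusted p stood close to the threshold, running from 0.0229 to 0.197 when 1 array or slide was left out, and TAP2 passed only without the Empa array of HK-2 replicate 1 or the control array of RPTEC/TERT1 replicate 1. A second TAP2 probe, for another transcript, was well above background on 2 arrays and was not used.

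TAP1 signals were 2182, 932.9, 735.6 and 2125 units on control arrays and 3403.5, 745.2, 581.2 and 3206 units on IL-1β arrays. TAP1 was thus higher with IL-1β on the slides where its control signal was high and lower on the other 2, with log2 differences of 0.64, -0.32, -0.34 and 0.59. Over the 4 slides this came to 0.14 (95% confidence interval -0.38 to 0.67), which did not pass (limma adjusted p = 0.734).

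TAPBP, whose product tapasin bridges TAP and the empty class I molecule, showed the largest split between slides. Its control signals were close together at 2852.5, 3411, 3067 and 2916 units, but its IL-1β signals were 11719, 2168, 2533 and 10413 units. IL-1β arrays were thus the highest and the lowest of the 8, and the log2 differences were 2.04, -0.65, -0.28 and 1.84. The fitted value of 0.74 had an SE of 0.538 and did not pass (limma adjusted p = 0.412). The brighter 3 of its 4 probes moved the same way on each slide with IL-1β: another gave 1.72, -0.45, -0.30 and 1.58, and the one that spans a splice junction gave 0.78, -0.28, -0.18 and 1.45.

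HLA-E, the ligand of the inhibitory receptor CD94/NKG2A, was the only heavy chain gene among the 10 that passed. Its probe lies at chr6:30460729-30460788 (hg19, plus strand). Control signals were 19874, 6268, 4524 and 13248 units and IL-1β signals 36094, 7086, 6306 and 34222 units. IL-1β arrays exceeded the control array of every slide, but the groups overlapped, since the highest control signal was 4.39 times the lowest. The log2 differences were 0.86, 0.18, 0.48 and 1.37 (fitted 0.72, SE 0.194, limma adjusted p = 0.042). It passed without the Empa array of HK-2 replicate 1, the control array or the IL-1β array of HK-2 replicate 2, and lost its call in the 13 other fits that left out an array or slide (adjusted p from 0.0581 to 0.24). With no slide block its adjusted p was 1.0.

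HLA-F control signals were 13036, 13284, 11828 and 16434 units, and IL-1β signals 32111, 9692, 10490.3 and 27454 units. As with TAPBP, the control arrays were alike and IL-1β arrays took both ends of the range, with log2 differences of 1.30, -0.46, -0.17 and 0.74 (fitted 0.35, SE 0.356, limma adjusted p = 0.563). A second HLA-F probe gave 1.19, -0.82, -0.16 and 0.96. Class I genes are alike in sequence, and the HLA-E and HLA-F probes matched a probe of another class I gene at no more than 28 of 60 bases without gaps. Probes were compared only with probes and not with whole transcripts, so this match does not show how specific they are. Whether other class I transcripts bind them was not tested.

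B2M, the light chain shared by all class I molecules, had control signals of 18992, 5594, 6029.7 and 23689.8 units and IL-1β signals of 39067, 5901, 5061 and 41156 units. The slides fell far apart before any treatment, the highest control being 4.24 times the lowest. IL-1β differences were 1.04, 0.08, -0.25 and 0.80 on the log2 scale, and the fitted 0.42 (95% confidence interval -0.18 to 1.01) did not pass (limma adjusted p = 0.343). NLRC5 control signals were 163.8, 96.9, 68.2 and 118.8 units and IL-1β signals 194.3, 73.3, 78.6 and 249.2 units. Its differences of 0.25, -0.40, 0.20 and 1.07 gave 0.28 (95% confidence interval -0.24 to 0.80), with overlapping groups. A second NLRC5 probe, well above background on 8 arrays, was not used. Its log2 differences with IL-1β were -0.417, -1.685, 1.389 and 0.07 (mean -0.161), so the 2 probes did not share a direction on every slide.

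**Figure D2:**
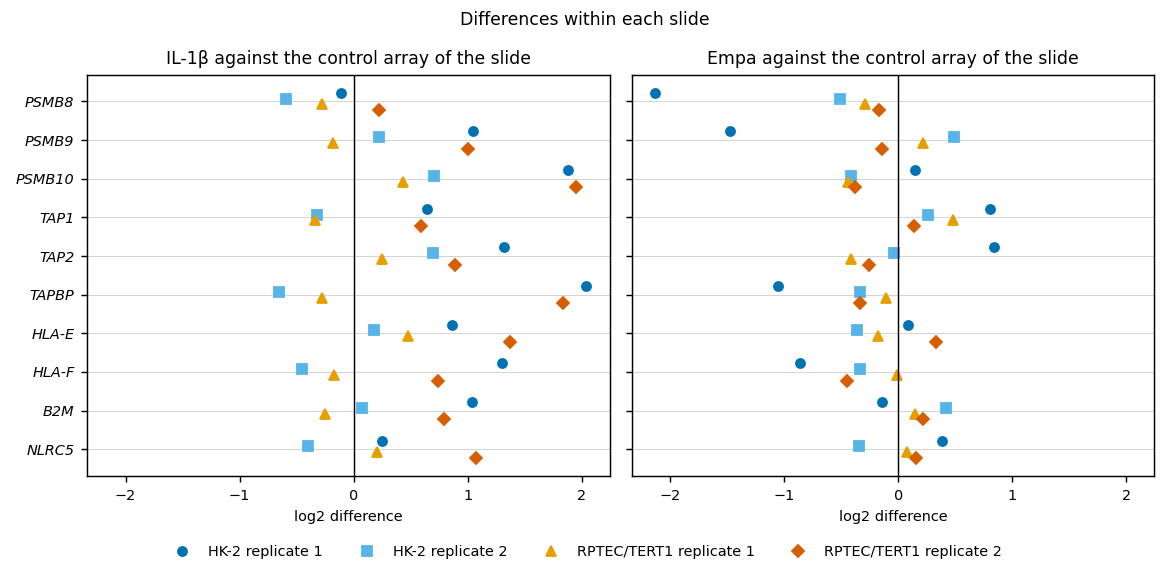
Log2 difference of the IL-1β array (left) and the Empa array (right) from the control array of the same slide, for each of the 10 genes and 4 slides. With IL-1β the points of HK-2 replicate 1 and RPTEC/TERT1 replicate 2 lay to the right of those of the other slides in all 10 genes, narrowly so for HK-2 replicate 1 in NLRC5 (0.25 against 0.20).

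Read slide by slide, 8 of the 10 genes were at least 1.5-fold above control on the slide labelled HK-2 replicate 1 (14.7% of all genes) and 9 of 10 on that labelled RPTEC/TERT1 replicate 2 (21.1%). On HK-2 replicate 2 it was 2 of 10 (13.1%), TAP2 and PSMB10, and on RPTEC/TERT1 replicate 1 it was 0 of 10 (6.94%). The median log2 difference of the 10 genes was 1.04 on HK-2 replicate 1, -0.12 on HK-2 replicate 2, -0.18 on RPTEC/TERT1 replicate 1 and 0.95 on RPTEC/TERT1 replicate 2. Over all genes tested the medians were -0.18, -0.15, -0.06 and 0.01. Above their control array by any amount were 9 of the 10 on HK-2 replicate 1 (39.0% of all genes), 5 on HK-2 replicate 2 (41.0%), 4 on RPTEC/TERT1 replicate 1 (43.4%) and 10 on RPTEC/TERT1 replicate 2 (50.7%). The slides with the larger values thus bear different line labels, different replicate numbers and different scan days, and are those whose control arrays correlated at 0.984. Between the labelled lines, the IL-1β effect differed for 0 of 10 genes (limma interaction, background 0.0%, with 280 genes or 1.78% at an unadjusted p under 0.05, none of them among the 10). These differences had wide errors, the largest for TAPBP (0.09 on the log2 scale, RPTEC/TERT1 minus HK-2, SE 1.20). Each line label covers a slide with larger IL-1β values and another with smaller values. This contrast therefore cannot show whether the lines respond alike.

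With Empa, no gene of the 10 passed: it was 0 of 10, against 1 gene of 15717 (0.00636%), and 0 of the 10 had an unadjusted p under 0.05 in limma (12.1% of all genes). The median log2 fold change was -0.13 over the 10 genes and -0.02 over all genes tested. PSMB8, TAPBP and HLA-F were lower on 4 of 4 slides (13.7% of all genes) and TAP1 was higher on 4 of 4 (12.9%). Above their control array with Empa were 5 of the 10 on HK-2 replicate 1 (55.3% of all genes), 3 on HK-2 replicate 2 (41.4%), 4 on RPTEC/TERT1 replicate 1 (45.3%) and 4 on RPTEC/TERT1 replicate 2 (54.6%). For a difference between the labelled lines in the Empa effect, 0 of the 10 genes passed (limma interaction, background 0.0%). This contrast, too, rests on line labels that the data do not settle.

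PSMB8 had the largest fitted Empa value over all arrays. Its Empa signals were 207.7, 589.3, 502.7 and 733.8 units, each below the control array of its slide, with log2 differences of -2.13, -0.51, -0.29 and -0.17. The fitted -0.77 (SE 0.346) did not pass (limma adjusted p = 0.417), and the first slide was far from the rest: without the Empa array of HK-2 replicate 1 the value was -0.308, smaller in size than that of TAP1 (0.379). PSMB9 on that same Empa array was at 161.2 units, a log2 difference of -1.47, whereas the other slides gave 0.49, 0.22 and -0.14 (Empa signals 1557.5, 1544 and 583.1 units). Its fitted value of -0.23 changed sign to 0.28 without that array.

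TAPBP Empa signals were 1369.8, 2698, 2856 and 2307 units, with log2 differences of -1.06, -0.34, -0.10 and -0.34. The other 2 TAPBP probes well above background on all 12 arrays gave -0.004, -0.30, -0.15 and -0.46, and -0.36, -0.21, -0.02 and 0.10, so the drop on the first slide was not shared by all of them. HLA-F signals were 7156, 10550.2, 11725 and 12002 units and the differences -0.87, -0.33, -0.01 and -0.45. With the probes that stood for these genes, as in PSMB8 and PSMB9, the lowest value was on the Empa array of HK-2 replicate 1. Fitted values were -0.46 for TAPBP (SE 0.538) and -0.42 for HLA-F (SE 0.356), or -0.043 and -0.108 without that array, and the second HLA-F probe gave -1.83, -0.47, 0.01 and -0.67.

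TAP1 went the other way, with Empa signals of 3818, 1119.5, 1029 and 2340.4 units and log2 differences of 0.81, 0.26, 0.48 and 0.14. Its fitted 0.42 (95% confidence interval -0.10 to 0.95) did not pass (limma adjusted p = 0.481). For the genes that rose with IL-1β, the Empa values were -0.27 for PSMB10 (95% confidence interval -0.89 to 0.35), 0.03 for TAP2 (-0.46 to 0.53) and -0.03 for HLA-E (-0.47 to 0.41). B2M gave 0.16 (-0.43 to 0.76) and NLRC5 0.07 (-0.45 to 0.59). Each of these intervals spans 0.

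**Figure D3:**
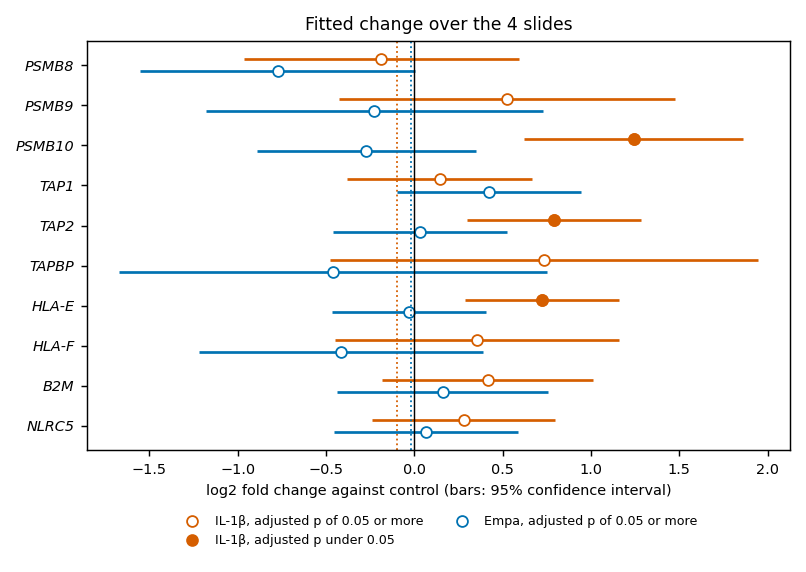
Fitted log2 fold change of each gene with IL-1β (orange) and Empa (blue) against control over 4 slides, with 95% confidence intervals; filled points passed at an adjusted p under 0.05 and dotted lines mark the median of all genes tested. The filled points are PSMB10, TAP2 and HLA-E with IL-1β, and all Empa intervals cross 0.

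Around these genes, 60 others of the pathway, its regulators and neighbouring pathways were tested: 5 rose and 1 fell with IL-1β, against 4.73% higher and 7.74% lower over all genes tested, and 0 passed with Empa (0.00636% of all genes). The counts by list below have these same backgrounds. ERAP1, the aminopeptidase that trims peptides in the endoplasmic reticulum, rose 2.55-fold (limma adjusted p = 0.038) and was the 1 of 10 peptide loading and trimming genes to pass. CALR and HSPA5, chaperones of the endoplasmic reticulum, had log2 values of 0.74 and 0.71 that did not pass (limma adjusted p = 0.0901 and 0.0783). None of 5 classical and other heavy chain genes passed: HLA-B was at 0.40 and HLA-C at 0.29 on the log2 scale. The constitutive catalytic subunits (0 of 3) and the proteasome activators and assembly factors (0 of 5) held log2 medians of 0.13 and 0.21.

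Among 17 regulators of class I transcription, NFKB1, which encodes the p105/p50 subunit of NF-κB, rose 4.32-fold (limma adjusted p = 0.0141) and was higher on every slide (log2 differences 3.20, 1.29, 0.92 and 3.03). IRF1, the interferon-inducible activator, had differences of 2.80, 0.09, 0.40 and 3.51 and did not pass (limma adjusted p = 0.14). Of 7 tested genes for interferon receptors and their kinases, IFNGR1 rose 4.02-fold and IFNAR1 1.49-fold (limma adjusted p = 0.00313 and 0.0222). The probes of IFNB1, IFNG and IFNL1 were well above background on 0 arrays.

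MICB, a stress ligand of the activating receptor NKG2D, rose 3.05-fold (limma adjusted p = 0.0062; 1 of 5 class I-like genes, against 4.73% of all genes higher). HLA-DMA, which loads peptides onto class II, fell by 0.87 on the log2 scale (limma adjusted p = 0.0119; 1 of 8 class II genes, against 7.74% of all genes lower). Of 10 genes of the interferon response, GBP1 rose (log2 1.21) and IFIT1 and IFIT2 fell, by 2.71 and 1.44 on the log2 scale, on 4 of 4 slides each (limma adjusted p = 0.00958, 0.000872 and 0.00233). In a check of the stimulus, 8 of 9 known IL-1β target genes passed, with a median log2 fold change of 5.84 over the 9. The size of that median is rough. CCL2, SOD2 and CXCL1 were saturated on 2 arrays each, and CCL2 and CCL20 were well above background on only 8 of 12 arrays. ICAM1, ZC3H12A, CCL2, SOD2 and CXCL1 were among the genes that the study selected from these arrays as raised by IL-1β and lowered by Empa. The check is thus not independent of these data. IL6 differed by 9.40, 4.90, 4.56 and 8.98 over the slides, higher on every slide and most on the slides where TAPBP was higher.

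**Figure D4:**
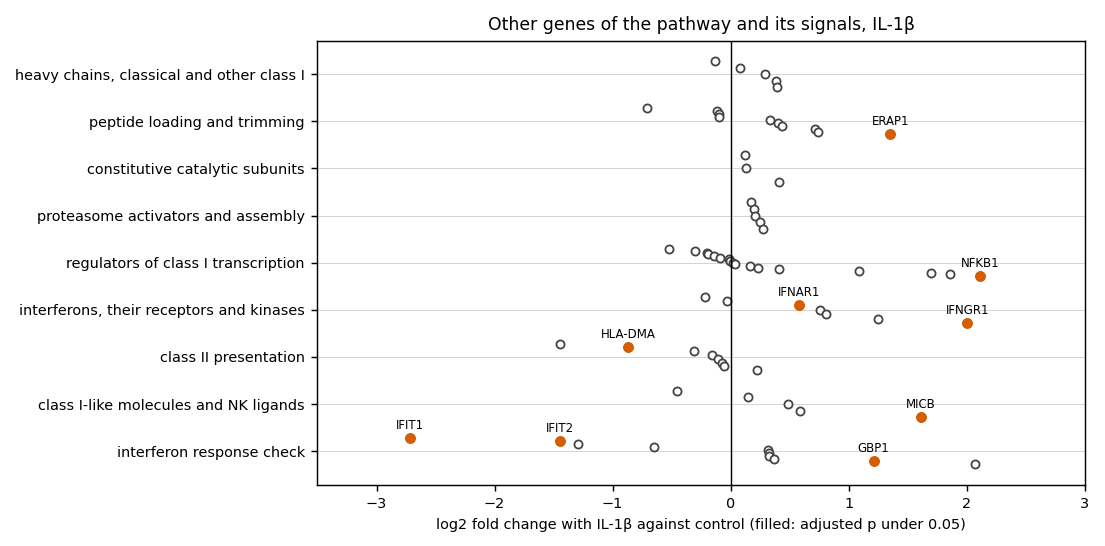
Fitted log2 fold change with IL-1β of the other genes of the pathway, its regulators and the interferon response, 1 point per gene and 1 row per list; filled points passed at an adjusted p under 0.05 and are named. Between NFKB1 at 2.11 and IFIT1 at -2.71, the points of the proteasome lists lay close to 0, with none above 0.41.

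The 10 genes did not vary as 1 block. Over the 8 differences within slides (4 slides, both agents, sharing 4 control arrays), the correlation of each gene with the mean of the 10 was highest for TAPBP (r = 0.988), HLA-F (0.951) and PSMB10 (0.892). It was lowest for TAP1 (0.342), NLRC5 (0.599) and TAP2 (0.612); each gene is part of that mean. The mean itself was 1.03, -0.05, -0.01 and 1.05 with IL-1β and -0.34, -0.12, -0.05 and -0.09 with Empa. Of 12602 other genes compared, the most alike in this profile were CTSC (r = 0.994), WFDC2 (0.994), IL32 (0.991), NFKB2 (0.991) and SLC37A1 (0.991). CTSC encodes the lysosomal protease cathepsin C, IL32 a proinflammatory cytokine and NFKB2 an NF-κB subunit precursor. CTSC gave 2.05, -0.20, -0.30 and 1.96 with IL-1β, and IL32 5.76, -0.38, 0.04 and 5.40. These correlations rest on 8 values that share control arrays, and they describe likeness of pattern only.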

How the data were processed

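Total RNA from 12 cultures was labelled with Cy3 and hybridized to Agilent Human GE 4x44K v2 arrays; the study describes 2 independent experiments with each line. The authors scanned the arrays and deposited the intensity of each spot as read by Agilent Feature Extraction 9.5.3.1, which subtracts background and removes spatial trends within an array but does not scale arrays to each other. A further deposited table by the authors holds log2 values described as quantile-normalized (column medians 6.65 to 8.31, alike within a slide; its steps before normalization are not given in the sources used here), which served as an alternative. Genes are named as in the array files, whose probe positions are on hg19.

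Outlier spots were left out, spots of a probe averaged, and the 33483 probes with a value on all 12 arrays kept. Signals were scaled to the 75th percentile of each array, set to a floor of 1 signal unit and put on the log2 scale. Of the probes that were well above background in every array of 1 group or more, the brightest stood for its gene (15717 genes). limma 3.58.1 (R 4.3.3) fitted the slide as a block and 1 effect per treatment (6 residual degrees of freedom), or the treatment by line interaction (4), with Benjamini-Hochberg adjustment over all genes and a threshold of 0.05. Arrays of a slide deviated together from their group means (r = 0.592 to 0.906, replicate numbers from the labels). Each group mean joins 2 arrays of the same label. On control arrays these were less alike (r = 0.880 and 0.875) than the closest arrays across labels (0.984 and 0.973). The shared deviation therefore cannot single out an effect of the slide. The fits were tested on simulated data. The number of arrays limits the precision.

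The 10 genes are named by the rule that all are described; of the other lists, those past the threshold are named, with other members given only as values, and the 5 genes most like the mean of the 10. The 10 genes and all lists were chosen with earlier results of these data known. Other normalizations, filters, blocks, tests and left-out arrays or slides were tried as alternatives. Python 3.11.15, pandas 2.3.3 and matplotlib 3.10.9 made the summaries.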

Additional observations from a re-analysis of the deposited data

Results flagged for a closer look

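With Empa, the PSMB10 log2 difference of 0.15 on the slide labelled HK-2 replicate 1 stood apart from those of the other slides (-0.42, -0.44 and -0.38), by Dixon's test over the 4 slides. Chance alone marks about 1 in 20 such groups, and 20 were looked at (10 genes with each agent).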

How the results depend on the processing

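With IL-1β, 3 of the 10 genes passed in the fit reported, and 3 again under quantile normalization, normexp, the authors' table, a filter on all 12 arrays, outlier spots kept and a floor of 5 signal units. It was 0 with no replicate block (6 groups), 0 with the 6 groups and the replicate block, 0 with no filter on dim probes, 0 with every probe tested, 0 on scan day 1 alone, 0 on scan day 2 alone and 0 by the methods' t-test (2 at an unadjusted p under 0.05), and from 0 to 3 when 1 array or slide was left out. It was 0 without the control or IL-1β array of HK-2 replicate 1 or of RPTEC/TERT1 replicate 2, and without the slides HK-2 replicate 1, HK-2 replicate 2 or RPTEC/TERT1 replicate 2. The methods' t-test is the unpaired t-test that the study used for real-time PCR and ELISA data. It was run here on all control and all treated arrays of an agent, with both lines pooled. For the arrays the study names no test. No-block limma adjusted p values were 0.387 for PSMB10 and 0.457 for TAP2. The unfiltered and every-probe fits test more: 1397 of 25622 genes and 1584 of 33483 probes passed in them. On either scan day alone 0 of all 15717 genes passed, so the count of 0 there is not particular to the 10 genes. The other causes were not tested. Over all 29 alternatives PSMB10 passed in 15, TAP2 in 8 and HLA-E in 9, each higher than control in all 29.

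Over all genes, 1961 passed with IL-1β (744 higher, 1217 lower), 838 higher and 1025 lower by quantile normalization, 928 and 997 by normexp. The number passing with IL-1β was 1928 with the authors' table and 2044 with a floor of 5. The number was 1725 of 12632 genes with the filter on all 12 arrays and 2069 of 16065 with outlier spots kept. It was 7 with no replicate block, 855 with the 6 groups and the replicate block, 0 and 0 on scan days 1 and 2 alone (1376 and 2415 at an unadjusted p under 0.05), 42 by the methods' t-test (1979 unadjusted) and 448 to 2943 with 1 array or slide left out. With Empa, 1 gene passed; it was 0 with no replicate block, the 6-group block, normexp, the authors' table, no filter, the all-array filter, every probe, a floor of 5 and either scan day, 2 by the methods' t-test, and 0 to 1 with 1 array or slide left out. For Empa and for the difference between the labelled lines, 0 of the 10 genes passed under every alternative run.

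Signs turned only in values that did not pass. The Empa value of HLA-E became 0.009 (quantile), 0.051 (normexp) and 0.063 (the authors' table), that of NLRC5 -0.097 (scan day 2), that of PSMB9 0.036 (the authors' table) and 0.174 (scan day 2), and that of TAP2 -0.074 (the authors' table) and -0.146 (scan day 2). With 1 array or slide left out, Empa values ran from -0.197 to 0.117 for HLA-E, -0.077 to 0.252 for NLRC5, -0.515 to 0.277 for PSMB9, -0.236 to 0.198 for TAP2, and IL-1β values from -0.037 to 0.637 for HLA-F, -0.439 to 0.027 for PSMB8, -0.055 to 0.314 for TAP1. The cause was not tested. Of the values of the 10 genes under the alternatives, 499 kept direction and call, 55 lost the call and 26 turned.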
